A study of Sus scrofa with 2 samples.

Results

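First-intron peaks were the sites of ZBTB16 signal that the authors' annotation placed inside the first intron of a transcript. They were every peak whose annotation opened with Intron and named intron 1, whatever the number of introns in that transcript. There were 475 among the 10273 peaks of replicate 1 and 257 among the 7301 peaks of replicate 2, so 732 of 17574 peaks in all. Their share of the list was 4.62% in replicate 1 and 3.52% in replicate 2.

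The data were CUT&Tag peaks for ZBTB16 in immature spermatogonia of wild-type genotype, taken from the testes of pigs. CUT&Tag directs a transposase to a chromatin protein with an antibody and sequences the DNA fragments cut out around it. The labels describe 1 group of 2 libraries, made from 100000 cells each, with no treated or mutant group. They do not say whether the libraries came from separate animals or cultures, and an IgG control that they describe was not analysed here. The files hold no expression values, so the cell type given in the labels was not checked against its marker genes.

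ZBTB16, also called PLZF, is a zinc finger protein of the BTB family that recruits histone deacetylase co-repressors. In mouse testis it marks undifferentiated spermatogonia and is needed to maintain the stem cells among them. First introns begin close to the transcription start site (TSS), are often the longest introns of a gene, and frequently hold enhancers, silencers and alternative start sites. A peak there can therefore lie beside the core promoter or far inside the gene.

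Within introns, ZBTB16 peaks lay in intron 1 more often than in any other single intron. In replicate 1, 475 of 1140 intron peaks (41.7%, 95% Wilson interval 38.8 to 44.6) were in intron 1, against 203 (17.8%) in intron 2 and 114 (10%) in intron 3. In replicate 2, 257 of 695 (37.0%, 33.5 to 40.6) were in intron 1, against 139 (20%) in intron 2 and 72 (10.4%) in intron 3. If each intron of the host transcript had taken an equal share, 16.5% of intron peaks in replicate 1 and 16.4% in replicate 2 would have been in intron 1. That share takes no account of intron length, which was not known here. The host transcripts of first-intron peaks had a median of 8 introns in replicate 1 and 9 in replicate 2, against 12 for later-intron peaks in both. Only 37 first-intron peaks of replicate 1 and 24 of replicate 2 were in transcripts with a single intron.

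These peaks were in 460 genes in replicate 1 and 241 in replicate 2, and 610 genes had one in either library. Most were in protein-coding genes, with 412 such peaks in replicate 1 and 222 in replicate 2, and 60 and 32 were in long noncoding RNA genes. Most hosts had a single peak: 12 genes in replicate 1 and 14 in replicate 2 had more. The host genes had a median length of 72.1 kb in replicate 1 and 78.1 kb in replicate 2, against 101 kb and 119 kb for the hosts of later-intron peaks.

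First-intron peaks were spread from the edge of the promoter to deep inside genes. The authors give each peak a distance to 1 assigned TSS, and this was the start of the host transcript for 284 peaks (59.8%) of replicate 1 and 149 (58.0%) of replicate 2. For another 146 (30.7%) and 83 (32.3%) it was the start of another transcript of the same gene, and for 45 (9.47%) and 25 (9.73%) it belonged to another gene. Where the start was that of the host transcript, the median distance was 2210 bp in replicate 1 (quartiles 648 and 11417 bp, range 96 to 221871) and 2901 bp in replicate 2 (quartiles 540 and 15463 bp, range 92 to 371594). The later-intron peaks with such a start, 205 in replicate 1 and 126 in replicate 2, had medians of 21823 and 17980 bp. Over any assigned TSS, the median absolute distance was 2943 and 4660 bp for first introns and 24467 and 26786 bp for later introns.

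Over all assigned starts, 163 first-intron peaks of replicate 1 (34.3%) and 82 of replicate 2 (31.9%) were within 1 kb, against 11 (1.65%) and 7 (1.60%) later-intron peaks. A further 76 (16%) and 37 (14.4%) lay between 1 and 3 kb. At the far end, 33 (6.95%) and 19 (7.39%) were beyond 50 kb. In all, 236 first-intron peaks of replicate 1 and 138 of replicate 2 lay beyond 3 kb, about as many as within it. A peak in a first intron can also precede another start of its gene. Such a start was the assigned one for 23 peaks of replicate 1 and 16 of replicate 2. Starts other than the assigned one were not counted, so more peaks can lie upstream of a start of their gene.

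**Figure D1:**
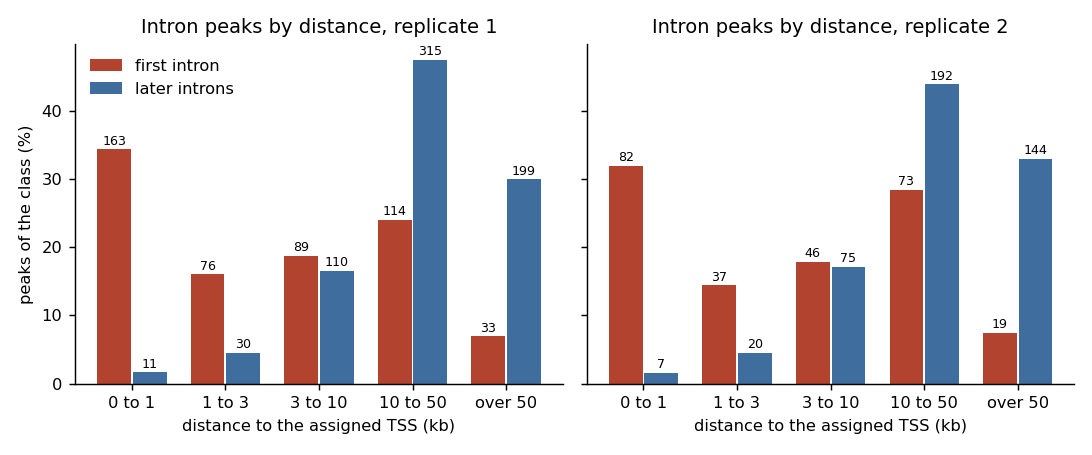
Share of first-intron and later-intron peaks (percent of each class) by distance to the assigned TSS, in bins in kb, for replicate 1 and replicate 2. In replicate 1, 34.3% of first-intron peaks were within 1 kb, against 1.65% of later-intron peaks.

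By strength, first-intron peaks were close to other intron peaks and weaker than promoter peaks. Strength is the authors' fold enrichment, the fragments at the summit over the local background. The median fold was 4.32 in replicate 1 (lower quartile 3.81, highest 11.6) and 4.30 in replicate 2 (lower quartile 3.96, highest 10.6). Later-intron peaks had medians of 4.41 and 4.46, promoter peaks 5.33 and 5.25, and all peaks 4.98 and 5.0. The fragments at the summit, recovered from the deposited fold and p-value, had a median of 12 in replicate 1 and 11 in replicate 2, against 11 and 10 for later introns and 19 and 16 for promoters. Most first-intron peaks thus rest on few fragments. They had at least 7 in replicate 1 and 6 in replicate 2, and a peak missing from a list was not detected at that depth, which does not show that it is absent.

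A smaller share of first-intron peaks than of all peaks recurred between the libraries. Counting any overlap of at least 1 bp, 106 of 475 first-intron peaks of replicate 1 (22.3%, 18.8 to 26.3) overlapped a peak of replicate 2, against 53.2% of all replicate 1 peaks. Of those of replicate 2, 117 of 257 (45.5%, 39.5 to 51.6) overlapped a peak of replicate 1, against 75% of all replicate 2 peaks. Promoter peaks recurred in 66.9% and 86.7%. The share differs by direction because the lists differ in length. Neighbouring peaks are not independent, and intervals and tests on peaks cover counting error within these libraries only.

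Set against other intron peaks, recurrence gave no common picture in the 2 libraries. In replicate 1 the shares were 22.3% for first introns and 22.9% (152 of 665) for later introns, a difference of -0.541 percentage points (95% interval -5.39 to 4.44, adjusted p = 0.886; Fisher's exact test, two-sided, adjusted after Benjamini and Hochberg over 4 tests). In replicate 2 they were 45.5% and 35.8% (157 of 438), a difference of 9.68 points (2.14 to 17.2, adjusted p = 0.0170 by the same exact test). The replicate 2 difference did not pass the exact test without the 4 genes with the most first-intron peaks (7.70 points, adjusted p = 0.0671). Nor did it pass the exact test beyond 3 kb from the TSS (4.58 points, adjusted p = 0.477), or when a first-intron peak had to meet a first-intron peak (2.60 points, adjusted p = 0.506).

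Recurrence followed the fragments behind a peak. In replicate 1, 5.05% of first-intron peaks with up to 9 summit fragments recurred, 14.6% of those with 10 to 12, 22.7% with 13 to 16, 44.4% with 17 to 24 and 73.3% (22 of 30) with 25 or more. In replicate 2 the shares in the same bins were 19.8%, 48.1%, 61.4%, 75% and 100% (16 of 16). Later-intron peaks in the same bins recurred in 2.67%, 14.9%, 27.8%, 58.8% and 84.4% in replicate 1 and in 12.6%, 36.6%, 64.5%, 100% and 95.8% in replicate 2. First introns thus had the higher share at up to 9 fragments in both libraries and the lower share at 13 to 16 and at 17 to 24, differences that were not tested. Promoter peaks with up to 9 fragments recurred in 17.4% and 51.8%, above first-intron peaks of that depth in both libraries, a difference that was not tested. First-intron peaks that recurred had a median fold of 4.63 in replicate 1 and 4.55 in replicate 2, against 4.25 and 4.21 for those that did not. By distance to the TSS, the shares lay between 18.2% (beyond 50 kb) and 25% (1 to 3 kb) in replicate 1. In replicate 2 they were 53.7% within 1 kb, 48.6% at 1 to 3 kb, 43.5% at 3 to 10 kb, 39.7% at 10 to 50 kb and 31.6% beyond. These shares count matches of any class. Of the 44 recurrent replicate 2 peaks within 1 kb, 20 met a first-intron peak and 12 a promoter peak. At 1 to 3 kb, 17 of 18 met a first-intron peak. By first-intron matches alone, 20 of 82 peaks within 1 kb recurred, against 17 of 37 at 1 to 3 kb, so the fall with distance did not hold there.

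**Figure D2:**
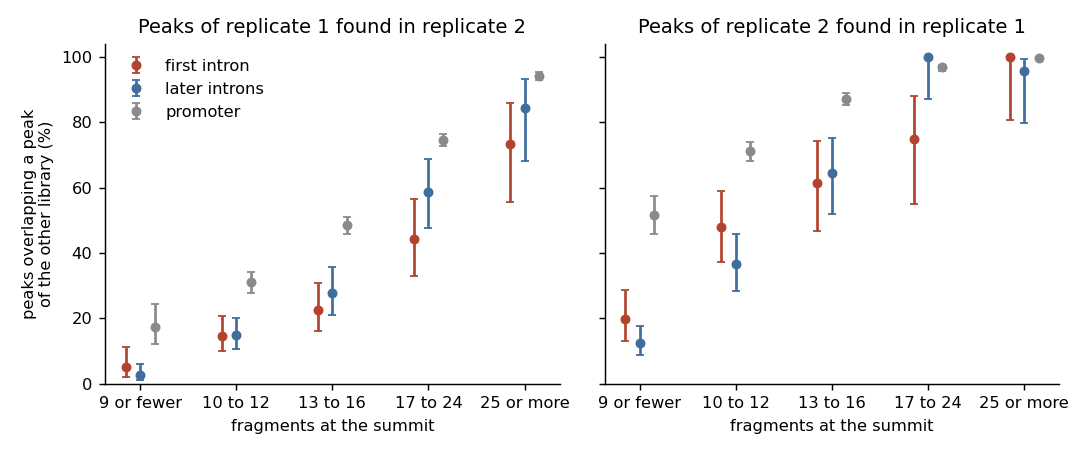
Share of first-intron, later-intron and promoter peaks (percent) that overlap a peak of the other library, by the number of fragments at the summit, with 95% Wilson intervals. In both libraries the share of first-intron peaks climbs with the fragments, to 73.3% in replicate 1 and 100% in replicate 2 at 25 or more.

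Of the 106 recurrent first-intron peaks of replicate 1, 90 met a first-intron peak of replicate 2, 6 a promoter peak, 5 a 5′ UTR peak and 5 an exon peak. Of the 117 of replicate 2, 90 met a first-intron peak of replicate 1, 12 a promoter peak, 10 a 5′ UTR peak and 5 an exon peak. The promoter matches were all within 1 kb of the TSS, at the edge between the 2 classes. KDM4C, a histone H3 lysine 9 demethylase, shows this: its first-intron peak of replicate 2 (3.74-fold) overlapped a promoter peak of replicate 1 (8.16-fold). That replicate 1 peak also spanned a separate KDM4C promoter peak of replicate 2 (5.48-fold, 21 fragments), so its promoter was listed in both libraries. TEX15, needed for meiosis and transposon silencing in mouse male germ cells, had 5.11-fold in the first intron in replicate 1. It overlapped a 4.35-fold promoter peak of replicate 2. For such genes the class depends on where the peak's edges fell.

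The peaks found in a first intron of the same gene in both libraries formed 90 pairs in 85 genes. Their summits were a median of 118 bp apart, and 40 pairs had summits within 100 bp. The median fold was 4.63 in replicate 1 and 4.74 in replicate 2, and 45 of the 90 were higher in replicate 1. The folds were within 1.25 times of each other in 57 pairs and over 1.5 times apart in 5. As a description across the 90 pairs, which share their libraries and local background, Pearson's r of log2 fold was 0.63 and Spearman's rank correlation of fold 0.480. Of these pairs, 52 were beyond 3 kb from the assigned TSS in both libraries.

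**Figure D3:**
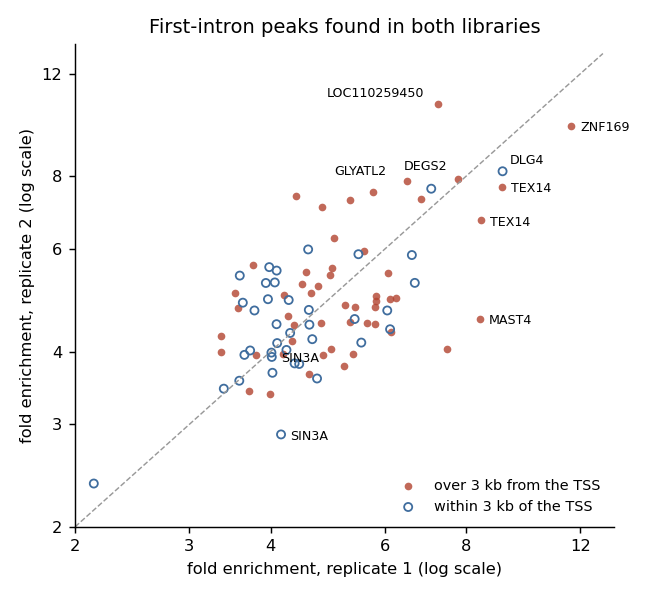
Fold enrichment of the 90 first-intron pairs in replicate 1 (x axis) and replicate 2 (y axis), both on log scales, with filled points over 3 kb from the TSS, open points within 3 kb and the line of equal folds dashed. ZNF169 is highest in replicate 1, at 11.6-fold, and the noncoding LOC110259450 in replicate 2, at 10.6-fold.

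ZNF169, a member of the KRAB zinc finger family of DNA-binding repressors, had the strongest first-intron peak in replicate 1. On chromosome 3 of Sscrofa11.1 it spanned 43552475 to 43553458 in replicate 1 and 43552492 to 43553453 in replicate 2. It lay 12089 and 12106 bp from the assigned TSS at 43540386, the start of another transcript of the gene than the host transcript. Its summit held 105 fragments (95% Poisson interval 85.9 to 127) and 72 (56.3 to 90.7), at 11.6-fold and 9.76-fold. The gene had a promoter peak only in replicate 2, of 11 fragments and 4.53-fold, at a different start of the gene (43504652). The intron site was thus the stronger one of this gene in both libraries.

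TEX14 carried the most first-intron peaks of any gene. TEX14 builds the intercellular bridges that join sister germ cells, and male mice without it are sterile. On chromosome 12, the peak at 34968102 to 34969301, 6600 bp from the TSS, had 62 fragments and 9.09-fold in replicate 1, and 43 fragments and 7.68-fold in replicate 2. The second, at 34923864 to 34924593 and 51308 bp from the TSS, had 47 fragments (8.42-fold) and 38 fragments (6.72-fold). The third, 42066 bp in, had 17 fragments (6.82-fold) and 16 fragments (7.32-fold). These 3 sites were found in both libraries. The fourth, 61099 bp in, appeared only in replicate 1 with 17 fragments (6.0-fold), and no TEX14 promoter peak was listed in either library.

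The other genes named for their rank are described by what they encode, with no test of any function among them. Distances are to the assigned TSS, which can be that of another transcript of the gene. DLG4 encodes PSD-95, a scaffold of the postsynaptic membrane, and its first-intron peak on chromosome 12 (52562779 to 52563440) had 9.11-fold and 63 fragments in replicate 1 and 8.16-fold and 46 fragments in replicate 2. DLG4 also had a promoter peak in both, at 6.21-fold and 4.89-fold, weaker than the intron peak each time. SLC12A5, the neuronal potassium chloride cotransporter KCC2, had 6.60-fold and 5.86-fold 283 bp from a start of the gene, with no promoter peak. HRH1, the histamine H1 receptor, had 4.98-fold and 5.56-fold, at a site assigned to the TSS of another gene. GNAQ, the alpha subunit of Gq, had 5.22-fold and 4.81-fold at 82418 bp, the farthest of the pairs in named protein-coding genes.

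NCOA2, a coactivator of nuclear receptors, had 7.07-fold (43 fragments) and 7.62-fold (33 fragments) 683 bp from a start of the gene. BAHCC1, a reader of histone H3 lysine 27 trimethylation, had 5.56-fold and 5.95-fold at 19895 bp. GSE1, which associates with histone deacetylase complexes, had 5.0-fold and 6.26-fold at 24280 bp. VGLL4, a TEAD cofactor that opposes YAP, had 4.94-fold and 5.42-fold at 38755 bp. ZSWIM6, a zinc finger protein of the SWIM type, had 5.74-fold and 7.53-fold in its first intron and a promoter peak in both libraries, at 6.42-fold and 6.70-fold. Its intron peak was assigned to the TSS of another gene. CHD9, a chromodomain helicase, had 2 sites in both libraries, at 57419 bp (4.62-fold and 5.05-fold) and 34170 bp (5.31-fold and 4.49-fold).

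DEGS2, which makes phytoceramide, had 7.79-fold and 7.92-fold at -11202 bp, upstream of an assigned TSS. GLYATL2, an enzyme that joins glycine to acyl groups, had 6.48-fold and 7.86-fold at 4736 bp. ST6GAL1, a sialyltransferase, had 5.31-fold and 7.29-fold, and BACE2, a relative of beta-secretase, had 6.07-fold and 5.46-fold. The first-intron folds of these 4 enzymes differed by under 1.5 times between libraries. AP2A1, a subunit of the clathrin adaptor AP-2, had 5.82-fold and 4.98-fold in its first intron, but 12.1-fold and 11.0-fold at its promoter, so here the promoter led. NUTF2, which carries RAN into the nucleus, had 6.10-fold and 4.92-fold. PEG10, an imprinted gene derived from a retrotransposon and needed for the placenta in mouse, had 5.46-fold and 5.88-fold. SBK1, a protein kinase, had 6.25-fold and 4.94-fold, and C7H14orf93 had 6.67-fold and 5.25-fold.

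The 5 pairs that differed most between libraries were split in direction. MAST4, a microtubule-associated kinase, had 8.39-fold in replicate 1 and 4.55-fold in replicate 2, and LOC110256592 had 7.47-fold and 4.04-fold. ATP2B4, a plasma membrane calcium pump, had 4.37-fold in replicate 1 and 7.40-fold in replicate 2. ARHGAP17 had 3.75-fold and 5.63-fold, and PTPRR, a tyrosine phosphatase, had 3.59-fold and 5.40-fold. Summit fragments, in that order, were 19 and 8, 20 and 7, 11 and 18, 9 and 12, and 10 and 10. PTPRR thus had equal fragments, over local backgrounds of 2.07 and 1.04. The summits of the 2 libraries were 191, 554, 121, 38 and 584 bp apart. These 5 pairs were chosen after their values were seen.

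Some strong first-intron peaks had no counterpart. TWIST2, a basic helix-loop-helix repressor of mesenchymal cells, had 10.0-fold and 32 fragments in replicate 1 at 39066 bp, the second highest first-intron fold of that library, and no overlapping peak in replicate 2. SLC7A14 (7.70-fold), GALNT18 (7.43-fold), EPAS1 (7.17-fold) and MBNL2 (6.99-fold) followed. SLC7A14 is an amino acid transporter relative, GALNT18 belongs to the enzymes that start O-glycans, EPAS1 is the hypoxia factor HIF-2 alpha, and MBNL2 is a splicing regulator. In replicate 2 the strongest without a counterpart were HS3ST4 (6.95-fold), LIPH (5.92-fold), RCAN1 (5.80-fold), SLC35F4 (5.70-fold) and LRRC2 (5.66-fold), all with 14 fragments or fewer. HS3ST4, a heparan sulfate sulfotransferase, had the longest distance of all, 371594 bp, and a separate replicate 1 peak at 221871 bp (3.91-fold). GALNT18, MBNL2 and RCAN1 had promoter peaks in both libraries.

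**Figure D4:**
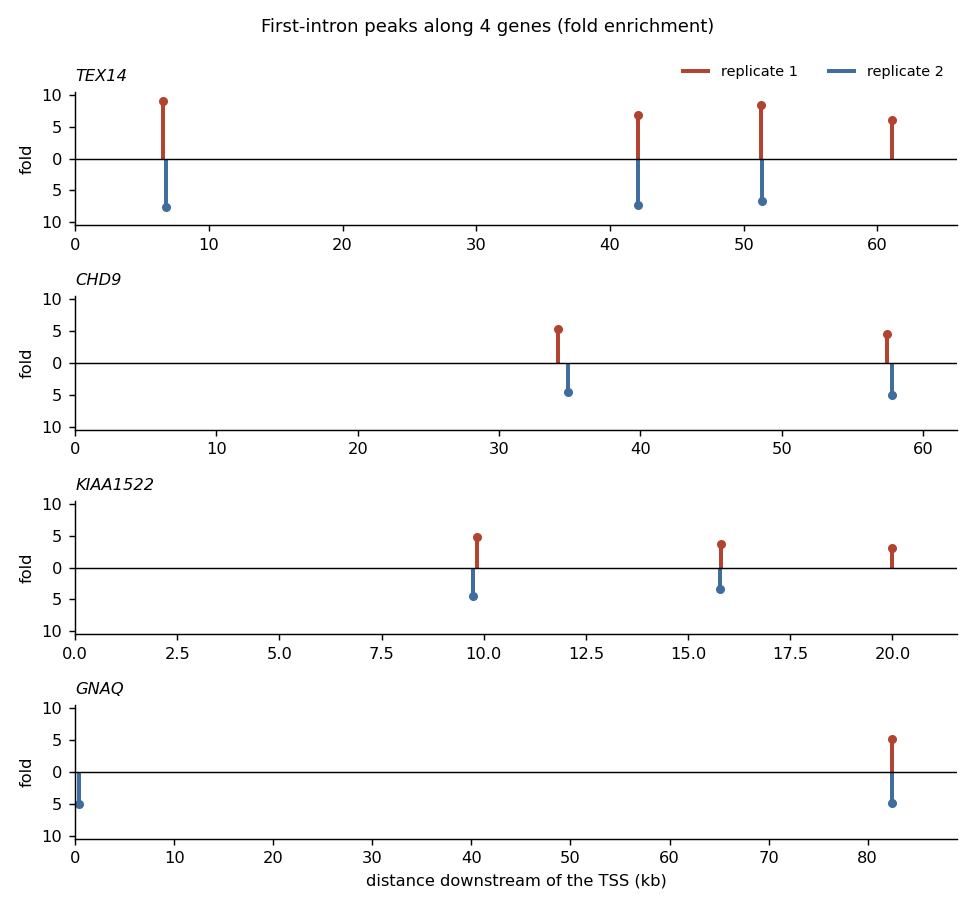
First-intron peaks of TEX14, CHD9, KIAA1522 and GNAQ by distance downstream of the assigned TSS (x axis, kb), with fold enrichment upward for replicate 1 and downward for replicate 2. TEX14 had 3 sites in both libraries, the strongest with 9.09-fold and 7.68-fold, and its site at 61099 bp only in replicate 1.

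Genes with a first-intron peak had a promoter peak less often than genes with a peak in a later intron. A gene counted as having one where a peak of the same library was annotated as promoter and given to it. In replicate 1, 86 of 460 first-intron hosts did (18.7%, 15.4 to 22.5), against 154 of 565 genes with only later-intron peaks (27.3%, 23.7 to 31.1), a difference of -8.56 points (-13.6 to -3.38, adjusted p = 0.00290; Fisher's exact test, two-sided, adjusted as above). In replicate 2, 29 of 241 did (12%, 8.51 to 16.7), against 86 of 391 (22%, 18.2 to 26.4), a difference of -9.96 points (-15.6 to -3.89, adjusted p = 0.00290 by the same exact test). Among protein-coding genes with a name, 22.3% of first-intron hosts in replicate 1 and 14.1% in replicate 2 had a promoter peak, against 32.8% and 24.9% of all such genes. Named protein-coding genes with only later-intron peaks had one in 31.0% and 25.2%, close to the shares of all such genes. A peak near the TSS receives 1 class, so a site at the start that is called intron cannot also be called promoter.

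The comparison was repeated by distance. In the same exact test with intron peaks beyond 3 kb only, the shares were 22.3% for first and 27.8% for later introns in replicate 1 (adjusted p = 0.167) and 14.0% and 22.8% in replicate 2 (adjusted p = 0.0840), so neither difference passed. The differences there were -5.44 and -8.81 points, with fewer genes in each class than in the full comparison. First-intron hosts with a peak within 3 kb had a promoter peak in 15.5% (37 of 238) in replicate 1 and 9.57% (11 of 115) in replicate 2. With promoter peaks of either library counted, the replicate 2 difference was -2.82 points (exact test, adjusted p = 0.616).

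**Figure D5:**
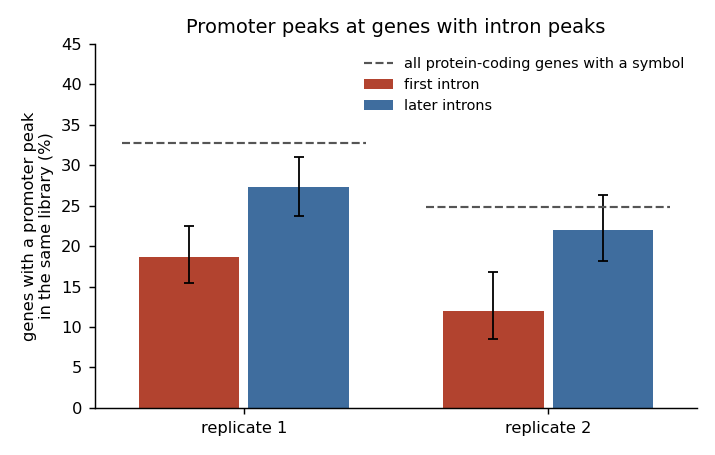
Share of genes (percent) with a promoter peak in the same library, for hosts of first-intron peaks and for genes with later-intron peaks only, with 95% Wilson intervals and the share of all named protein-coding genes as a line. The bars hold genes of every type, including noncoding ones, so they and the line cover different sets. First-intron hosts had 18.7% in replicate 1 and 12% in replicate 2, below 27.3% and 22% for later introns.

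Where a gene had both kinds of peak, most lay well apart. Their summits were a median of 14067 bp apart in the 86 genes of replicate 1 and 9869 bp in the 29 of replicate 2, and within 3 kb in 24 and 8. The median fold in these genes was 4.16 in the first intron and 4.73 at the promoter in replicate 1, and 4.46 and 4.72 in replicate 2. The first-intron peak was the stronger one in 29 genes (33.7%) of replicate 1 and 13 (44.8%) of replicate 2. Most hosts had no promoter peak in either library: 273 of 376 named protein-coding hosts in replicate 1 (72.6%) and 140 of 199 in replicate 2 (70.4%). Such a host can still have peaks of other classes, as RPTOR had a 5′ UTR peak in both libraries. Most of the 16491 named protein-coding genes also lacked a promoter peak in each library, as 32.8% and 24.9% had one. Over hosts of any type in replicate 1, 23.5% of first-intron and 31.7% of later-intron hosts had one in either library. In replicate 2 these shares were 25.3% and 28.1%. Among the 90 pairs, the host had a promoter peak in both libraries for 15, in 1 for 10 and in neither for 65. Of the 52 pairs beyond 3 kb, 36 were in genes with no promoter peak in either list. The same counts were not made for later-intron pairs, so these describe the pairs only.

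Germ cell, signalling and chromatin genes were counted by list. Over all 16491 named protein-coding genes, 3.03% had one in either library and 0.455% (75 genes) in both, and the list counts are to be read against these. In either library, each of the 16 lists had between 1 and 5 genes with such a peak, and the share ran from 2.08% of cell cycle genes to 14.3% of Sertoli cell markers (2 of 14). It was above that of all genes in 13 lists and below it in 3. In a short list 1 gene is enough for a share above it, as with 1 of 30 (3.33%). The tally therefore depends on list size and is not read as enrichment. The lists were chosen with earlier results of these data known and were not tested.

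Of 30 genes of undifferentiated spermatogonia, GFRA1, the co-receptor for GDNF, was the only one, with 4.07-fold and 11 fragments 560 bp from its start in replicate 2. Of 13 genes of spermatogonial differentiation, STRA8, which retinoic acid induces before meiosis, was the only one, with 5.86-fold and 18 fragments at 1468 bp in replicate 1. Of 28 genes of meiotic recombination and synapsis, SMC1B, a cohesin subunit of meiosis, had 4.98-fold and TEX15 5.11-fold, both in replicate 1. None of these 4 genes had a first-intron peak in both libraries.

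Of 14 Sertoli cell markers, GATA4 (4.13-fold) and FSHR (3.80-fold) had one in replicate 1, and of 20 markers of other somatic testis cells PDGFRA had one there (3.64-fold). From outside the testis, RBFOX1 (4.62-fold in replicate 1) and GRIN2A (3.54-fold in replicate 2) of 23 neuronal markers and HNF4A (4.33-fold in replicate 1) of 19 hepatocyte markers had one. A peak does not show that a gene is expressed.

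Chromatin regulators are given next, each beside the size of its list. Over all named protein-coding genes, 0.455% had a first-intron peak in both libraries, and the few genes below were not tested against that share. Of 51 histone methylation and acetylation enzymes, KMT2E (5.40-fold and 4.77-fold at 14357 bp) and DOT1L, the H3 lysine 79 methyltransferase (6.11-fold and 4.37-fold at 2943 bp), had one in both, and KDM4C, KDM6B (3.64-fold) and KDM7A (4.06-fold) in 1. KMT2E also had promoter peaks of 6.30-fold and 5.85-fold, at a different start of the gene (104911766) from the one the intron site was assigned (104876307). Of 40 co-repressors and histone deacetylases, SIN3A, the scaffold of a deacetylase complex that PLZF is known to bind, had 2 first-intron sites in both libraries and MTA3 1 site in replicate 1 (3.60-fold). The SIN3A sites lay on both sides of its promoter peak, with 62 and 57 fragments but only 4.15-fold and 4.02-fold in replicate 1, and 29 and 38 fragments at 2.88-fold and 3.92-fold in replicate 2. The local background there was 14.2 and 13.4 fragments in replicate 1, against a median of 1.91 for first-intron peaks. Of 33 Polycomb genes only PHF19 had one (4.08-fold, replicate 1).

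In signalling, WNT6, a WNT ligand, was the only one of 35 WNT genes and had 4.01-fold and 3.98-fold, 1417 and 1199 bp from its start. Of 38 genes of GDNF, FGF and RAS signalling, GFRA1 and the adaptor GAB1 (5.39-fold) had one in replicate 2, and the adaptor GAB2 (4.24-fold) and the RAS pathway inhibitor SPRED2 (4.01-fold) in replicate 1. Of 37 genes of PI3K and mTORC1 signalling, RPTOR, the RAPTOR subunit of mTORC1, had 3.59-fold and AKT1S1, an mTORC1 inhibitor, 3.20-fold in replicate 1, and the lipid phosphatase INPP4B had 4.04-fold in replicate 2. Of 31 genes of TGF-beta and BMP signalling, the activin receptor ACVR1B had 6.95-fold and 25 fragments in replicate 1, and the signal transducer SMAD3 had 3.85-fold in replicate 2. Apart from WNT6, each of these genes had a first-intron peak in 1 library. Promoter peaks were listed in both libraries for AKT1S1 (5.62-fold and 3.87-fold) and ACVR1B (3.75-fold and 4.12-fold). INPP4B had one in replicate 1 (4.03-fold). RPTOR had a 5′ UTR peak in both libraries (3.93-fold and 4.37-fold), and GAB1 had one in replicate 1 (5.08-fold).

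Cell cycle and adhesion genes closed the lists. Of 48 cell cycle genes, CDKN1A, the inhibitor p21, had 3.23-fold in replicate 1. It also had a 5′ UTR peak there (3.55-fold) and a promoter peak in replicate 2 (4.61-fold). Of 38 adhesion and cytoskeleton genes, chosen because many have long first introns, LPP, a focal adhesion protein, had 5.37-fold and 3.97-fold, and CTNNA1 (alpha-catenin, 3.76-fold) and ARHGEF3 (4.37-fold) had one in replicate 1. LIMCH1, an activator of nonmuscle myosin, was outside the lists and had 5.19-fold and 3.78-fold at 54055 bp. KIAA1522 had 3 sites in replicate 1 (4.79, 3.70 and 3.05-fold) and the first 2 of them in replicate 2 (4.47 and 3.42-fold).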

How the data were processed

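Peaks were deposited per library, not pooled. Per the file headers, each carries its position, summit, a fold enrichment (a linear ratio), the −log10 of its p-value and of its q-value, a score, and the annotation and TSS distance given by the authors. The deposited score was not used. The submitters' processing notes name the build Sscrofa11.1. Not given in the sources used here are aligner, peak caller, its control, annotation tool and sequencing depth. Both lists stopped at a deposited −log10 q-value of 1.31. The authors' promoter class held peaks from -2995 bp (replicate 1) or -2910 bp (replicate 2) to 0 bp from the TSS, and each peak was assigned to 1 gene.

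Summit fragments and background were recovered from the deposited fold, read as (fragments + 1)/(background + 1), and from the −log10 p-value as the upper tail of a Poisson law, at a relative tolerance of 1e-05, for 100% of peaks in both lists. The lowest background was 1.21 fragments in replicate 1 and 0.979 in replicate 2. The calculation was tested on simulated data. Intervals are Wilson for shares and exact Poisson for fragments, at 95%, and cover counting error only.

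The host gene was read from the intron annotation, and promoter peaks were joined by the assigned gene. Gene types and the 16491 named protein-coding genes came from the RefSeq gene table for Sscrofa11.1. Chromosomes 19 and 20 of the files were X and Y there. Shares were compared within each library by two-sided Fisher's exact tests, with Benjamini-Hochberg adjustment over 4 tests and a threshold of 0.05. The members and the 16 gene lists were chosen with earlier results of these data known, and no list was tested. Named are the 20 genes whose first-intron peak was strongest in both libraries, ranked by the lower of their percentile ranks of fold, the 5 strongest peaks without a counterpart per library, the 5 pairs farthest from the TSS, the 5 genes with the most peaks, and list members with a peak (all with one in both libraries, otherwise up to 4 per list). Alternatives changed the overlap, the fold, the list lengths, the distance and the promoter definition. Calculations used scipy 1.17.1, pandas 2.3.3 and numpy 2.4.6 under Python 3.11.15, with figures by matplotlib 3.10.9.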

Additional observations from a re-analysis of the deposited data

How the results depend on the processing

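The lower share of first-intron hosts with a promoter peak kept its direction under every alternative run. By the exact test it missed the threshold with peaks at or above the median fold (-7.76 points, adjusted p = 0.117, in replicate 1 and -6.12 points, adjusted p = 0.367, in replicate 2), beyond 3 kb (-5.44 and -8.81) and, in replicate 2, with promoter peaks of either library (-2.82). The higher recurrence of first-intron peaks in replicate 2 missed the threshold with a reciprocal overlap of 50% (2.07 points), with matches of the same intron class (2.60), with lists of equal length (5.21), beyond 3 kb (4.58), and, in alternatives chosen after seeing the data, with at least 10 summit fragments (2.83) or without TEX14, KIAA1522, CHD9 and SIN3A (7.70). It turned to -2.31 points (exact test, adjusted p = 0.868) at or above the median fold. In replicate 1, where no difference passed, the sign turned below the median fold (2.46) and beyond 3 kb (0.342). The cause was not tested. The 75 named genes with a first-intron peak in both libraries became 17 at or above the median fold, and between 199 and 376 had one when each library was taken alone. First-intron peaks numbered 121 and 57 in replicates 1 and 2 at or above the median fold, and 236 and 138 beyond 3 kb, where their median fold was 4.46 and 4.40. Without single-intron transcripts the median fold was 4.29 in replicate 1. The recurrence share needs both lists, so it has no value with a library left out. No paired analysis was possible because the libraries form 1 group. First-intron summits held a median of 12 fragments in replicate 1 and 11 in replicate 2. Sequencing depth was not known, and how far it limits the lists was not tested.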

Other observations

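PEG3 and TFEB were outside the gene lists and were chosen after their values were seen. PEG3, an imprinted zinc finger gene expressed from the paternal allele, had 1 first-intron peak in replicate 1, with 36 fragments and 3.96-fold, and 2 in replicate 2, at 4.92-fold and 3.11-fold. TFEB, a transcription factor of lysosome biogenesis, had 3 first-intron peaks in replicate 2, at 5.04-fold, 4.28-fold and 3.98-fold, and none in replicate 1.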
